A study of Caenorhabditis elegans with 2 samples.

Results

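Core promoter summits of single genes were the positions of highest SMA-9 signal that lay 0 to 200 bp upstream of the annotated 5' end of a protein-coding transcript, with no protein-coding 5' end of the other strand within 1000 bp in the divergent direction. The list of reproducible peaks held 7065 summits, and 1084 of them met this rule, which is 15.3% (95% Wilson interval 14.5 to 16.2). They lay at 1060 of 19973 protein-coding genes. The rule used position alone, so signal, replicate values, sequence and gene identity were free to vary among the members.

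The peaks came from chromatin immunoprecipitation and sequencing (ChIP-seq) of whole Caenorhabditis elegans hermaphrodites at the L2 larval stage, 22 hours after the animals were synchronized as starved L1 larvae. Strain LW1254 has unc-119(ed4) in its background and an integrated array (jjIs1254) that supplies wild-type unc-119 together with a sma-9::gfp fusion. The fusion protein was precipitated with an antibody against GFP. The labels' note describes the tag as a GFP-FLAG tag at the C terminus. There were 2 biological replicates of this 1 group and no other condition, so no contrast was tested. All tissues of the animal were mixed, so a peak in few cells and a weak peak in many cells cannot be told apart. A control named in the labels was not analysed here. The peak signals below are the authors' values, taken from the list filtered by irreproducible discovery rate (IDR), which keeps peaks whose rank holds between replicates. They have no fixed unit and serve here to order peaks of the same list. Peak lists hold no read counts, so the depth of the libraries is unknown, and the intervals cover counting error only, over peaks or genes that are not independent replicates.

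SMA-9 is a large transcription factor with zinc fingers, a relative of fly Schnurri, which acts with Smads in BMP signalling. In the worm it acts in the DBL-1 pathway, which sets body size and takes part in patterning of the postembryonic mesoderm. The core promoter is the stretch around and just upstream of the start of transcription where RNA polymerase II assembles. In this species the pre-mRNA of many genes is trans-spliced: a short leader RNA is joined to an acceptor site that ends in AG, and the original start is lost. An annotated 5' end that directly follows AG can therefore be an acceptor site, downstream of the position where transcription begins.

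The sequences below, read 5' to 3' along the strand of the gene from the reference genome of build ce11 (WBcel235), run from 30 bp before the summit to 10 bp past the annotated 5' end, with the 21 bases around the summit in capitals. They were chosen because these genes lead the description: the members of highest and second highest signal, a nuclear hormone receptor, the gene of the precipitated factor itself, and an endoplasmic reticulum chaperone.
cdc-48.1 (chrII:10563398-10563599, minus strand): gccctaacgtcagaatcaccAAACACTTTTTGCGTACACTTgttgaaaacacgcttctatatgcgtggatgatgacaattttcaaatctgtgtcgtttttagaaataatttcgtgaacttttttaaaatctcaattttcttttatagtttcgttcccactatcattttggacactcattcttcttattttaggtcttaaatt
mdl-1 (chrX:6742229-6742360, plus strand): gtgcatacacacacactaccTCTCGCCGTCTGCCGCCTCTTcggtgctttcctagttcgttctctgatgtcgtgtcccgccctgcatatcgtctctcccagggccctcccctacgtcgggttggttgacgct
nhr-58 (chrV:532170-532268, plus strand): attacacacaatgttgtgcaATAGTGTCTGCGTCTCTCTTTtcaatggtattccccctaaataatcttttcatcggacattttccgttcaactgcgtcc
sma-9 (chrX:10772899-10773090, plus strand): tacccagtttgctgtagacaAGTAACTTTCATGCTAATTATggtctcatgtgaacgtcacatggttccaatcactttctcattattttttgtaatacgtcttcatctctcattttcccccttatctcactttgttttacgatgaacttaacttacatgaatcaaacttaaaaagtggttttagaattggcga
hsp-3 (chrX:6092115-6092204, minus strand): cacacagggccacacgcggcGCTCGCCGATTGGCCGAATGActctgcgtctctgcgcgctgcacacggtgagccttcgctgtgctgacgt

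The member of highest signal lay at cdc-48.1, which encodes a p97-type AAA ATPase that extracts ubiquitinated proteins from membranes and complexes. Its peak at chrII:10563467-10563675 had a signal of 1630 in the IDR list, 966 in replicate 1 and 677 in replicate 2. The summit was 162 bp upstream of the 5' end, and the peak ranked 10 of the 7065. The next was mdl-1, a MAD-like bHLH factor that pairs with a worm Max, with 1260 in the IDR list, 689 in replicate 1 and 573 in replicate 2. F28C10.3 followed with 1160 in the IDR list, 618 in replicate 1 and 557 in replicate 2. In these genes both replicates ranked the peak among their first 32.

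At alh-1, an aldehyde dehydrogenase gene, the signal was 1026, with 649 in replicate 1 and 408 in replicate 2, upstream of an internal 5' end of the gene. The nuclear hormone receptor gene nhr-58 had 892, with 467 in replicate 1 and 425 in replicate 2, and its summit lay 59 bp from the 5' end. The chemoreceptor gene srh-2 had 803, with 407 in replicate 1 and 404 in replicate 2, and the peak ranked 106 in replicate 1 and 52 in replicate 2. his-37, a histone H4 gene, had 725, with 442 in replicate 1 and 301 in replicate 2. Histone H4 genes are near copies of each other, so the assignment of reads to this copy is uncertain. These 2 were the members ranked in the first 100 peaks of 1 replicate but not of the other, and their ranks differed little.

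The other genes among the 25 members of highest signal were of mixed function. adh-1, an alcohol dehydrogenase gene, had 672, and cmtr-1, a cap methyltransferase gene, had 659. aakg-5, a gamma subunit of AMP-activated kinase, had 657 with its summit 41 bp from the 5' end. Genes of RNA polymerase II and of transcript handling were rpb-11 with 569, ntl-11 of the CCR4-NOT complex with 538, and scpl-3, a CTD-phosphatase-like gene, with 526. Also among the 25 were bag-1, an Hsp70 co-chaperone gene, with 587, lin-9 of the DREAM complex with 542, and hst-2, a heparan sulfate sulfotransferase gene, with 520 and a summit 15 bp from the 5' end. The 25 ranged from 511 to 1630, in 24 of them replicate 1 was higher, and their summits were 15 to 174 bp from the 5' end. Replicate 1 ranked all 25 within its first 236 peaks and replicate 2 within its first 359.

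sma-9 itself was the member that ranked 11. This peak at chrX:10772787-10773056 had 649 in the IDR list, 385 in replicate 1 and 266 in replicate 2. The summit lay 152 bp upstream of an internal 5' end, inside the body of the gene. It was not the strongest at sma-9: a summit of 1062 lay 794 bp upstream of a 5' end, too far to be a member. Since the array holds sma-9 sequence too, its DNA cannot be told apart from the endogenous gene, and the values here are uncertain.

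At the other end, the 3 members of lowest signal were mmaa-1 with 62.07, T01D1.7 with 62.05 and R07B7.10 with 61.97, next to the lowest signal of 61.96 in the whole list. Summits directly on the 5' end, at 0 bp, were those of vhp-1, a phosphatase of MAP kinases, with 169, M60.6 with 118 and Y42G9A.2 with 83.2. Just inside the far edge, at 200 bp, were plrg-1, a splicing factor gene, with 453, F41C3.2 with 121 and F08C6.18 with 119. The nearest summits left out, 1 bp further out, were those of F55A11.11 with 294, spp-3 with 138 and vav-1 with 120, so the edge cut through peaks of like signal.

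Members come from the IDR list, which keeps peaks whose rank holds between replicates. Their presence in both replicates' lists and the correlations below were thus in large part set by that selection. Of the 1084 summits, 1034 lay inside a peak of both replicates' own lists, which is 95.4% (interval 93.97 to 96.5), against 95.1% of the 3963 summits that are neither members, nor at divergent core promoters, nor elsewhere within 1000 bp upstream of a single gene (the other summits). With each replicate's list cut to its first 7065 peaks, 814 members were inside a peak of both, or 75.1%. That share was 80.2% for core promoter summits of divergent genes and 69.3% for the other summits. Across the 1034 members, Pearson's correlation of log2 signal between replicates was 0.77 and Spearman's correlation was 0.724, as a description over peaks that share the same 2 libraries. Replicate 1 had the higher signal in 756 of them, or 73.1%, where the lists' own scales may differ.

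**Figure D1:**
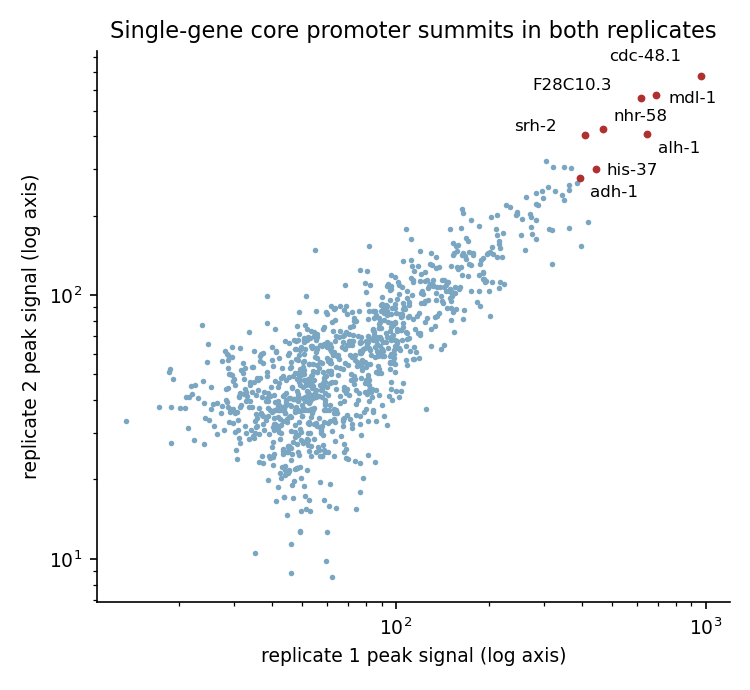
Signal of each member in the list of replicate 1 (x axis, log scale) and of replicate 2 (y axis, log scale), in the authors' units. Shown are the 1034 members with a peak over the summit in both. Each point is 1 summit, and the red points are the 8 members of highest IDR signal, which lie at the upper right, while points spread more widely at low signal.

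Another 50 members had a peak over the summit in 1 replicate alone, 24 in replicate 1 and 26 in replicate 2. A peak of the other replicate that lay beside the summit was not counted. The strongest of these was ZK858.6, with 316 in the IDR list, 200.7 in replicate 1 and no peak over its summit in replicate 2. kin-29, a salt-inducible-kinase homologue that affects body size, had 252 in the IDR list and 133 in replicate 1, with no peak over its summit in replicate 2. nhr-94 had 214 in the IDR list and 105 in replicate 2, with no peak over its summit in replicate 1. unc-115, a gene for an actin-binding protein of axons, had 210 and 99.3 in replicate 2, again with none in replicate 1. The missing side was thus not the same replicate each time.

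Members were of middling strength among SMA-9 peaks. Their median signal was 113 (quartiles 82.0 to 173), against 140 for the 404 core promoter summits of divergent genes, 115 for the 1614 single-gene summits beyond 200 and up to 1000 bp upstream (the upstream class) and 103 for the remaining 3963. In replicate 1 the medians were 62.0, 80.1, 63.9 and 59.5 in the same order, and in replicate 2 they were 53.5, 63.1, 53.7 and 49.9. The divergent class was the highest in both replicates, while members and the upstream class lay within 2 units of each other in each replicate. The interquartile ranges of all 4 classes overlapped. Members made up 13.6% of the 707 strongest peaks of the list, 19.5% of the peaks with signals from 128 to 155 and 12.2% of those from 61.96 to 68.0. Of the first 100 peaks in the list, 6 were members.

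**Figure D2:**
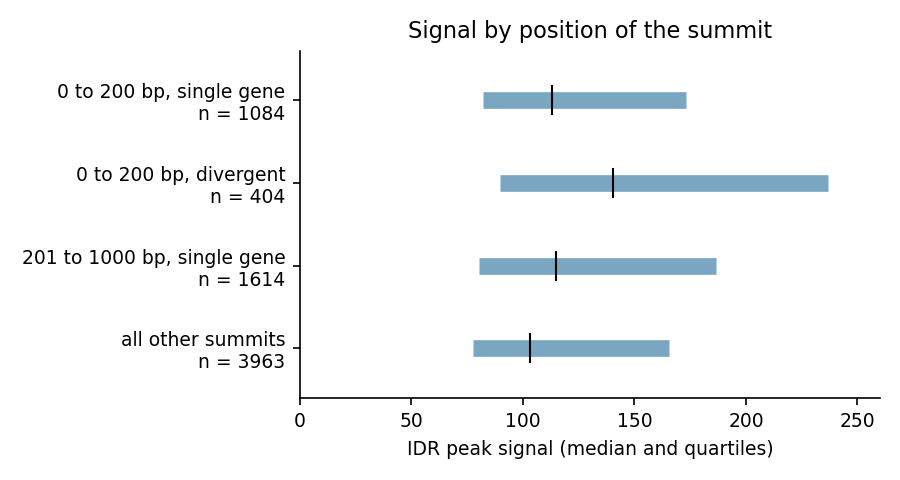
Signal in the IDR list (x axis, authors' units) for the 4 classes of summit by position (y axis), with black ticks for the medians and bars for the quartiles. The divergent core promoters have the highest median, 140, and the other 3 medians lie between 103 and 115.

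In the authors' pooled list, made from both replicates together, 2802 of 30000 calls met the same rule by position. Of these, 1084 were in the IDR list, or 38.7% (interval 36.9 to 40.5), against 23.55% of all pooled calls. The share was 59.1% for divergent core promoters and 28.8% for the upstream class. Calls close to a 5' end were therefore kept in the IDR list more often than calls elsewhere, by counts without a test. Stronger peaks were narrower: the median width was 184.5 bp in the 100 members of highest signal and 270 bp in the 100 of lowest signal. In all, 718 of the 1084 peaks, or 66.2%, had a width of exactly 270 bp, against 68.1% of all IDR peaks. Among the 100 members of lowest signal, 99 had that width.

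Summits were concentrated close to the 5' end. Upstream of single genes there were 539 summits per 100 bp in the stretch 0 to 200 bp and 202 per 100 bp from there to 1000 bp. The window did not hold them evenly: the 20 bp bin next to the 5' end held 70 members, and the bin from 140 to 159 bp held the most, 162. The median distance was 114 bp (quartiles 63 to 152). The signal changed little over the window, with bin medians from 101.35 to 123.

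The distance differed between 5' ends that directly followed AG and all others. The split used only the 2 bases before the annotated 5' end, so it does not separate acceptor sites cleanly. At cmtr-1 and ddp-1, for example, the annotated 5' end began with AG and was counted among the others. Of the 1084 members, 306 lay upstream of a 5' end that directly followed AG, or 28.2% (interval 25.6 to 30.98), close to the 26.4% of all protein-coding 5' ends. For these, the median distance was 147 bp (quartiles 119 to 170), and 40 of the 306, or 13.1%, lay within 100 bp. For the 778 others the median was 91 bp (quartiles 51 to 140), and 428, or 55.0%, lay within 100 bp. The intervals of these last shares, 9.75 to 17.3 and 51.5 to 58.5, do not meet. The median signals were alike, 111 after AG and 114 otherwise. In the lists of replicate 1 alone and of replicate 2 alone, the median distances were 145.0 and 149.5 bp after AG and 90.0 and 94.0 bp otherwise.

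The wider stretch of 0 to 1000 bp upstream of single genes, which includes the members, was described too. There, summits of 5' ends after AG had a median distance of 301 bp (1069 summits), and those of other 5' ends 216 bp (1629 summits). The lower quartiles were 182 and 95 bp, but the upper quartiles were alike, 551 and 543 bp. The difference thus lay in the nearer part of the stretch. The share after AG was 7.43% for summits 0 to 49 bp away, 9.16% at 50 to 99 bp, 37.5% at 100 to 149 bp and 48.98% at 150 to 199 bp. It was highest at 300 to 349 bp, with 61.1%, and 41.7% at 450 to 499 bp. How far upstream of the acceptor site transcription began was not measured in these data.

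**Figure D3:**
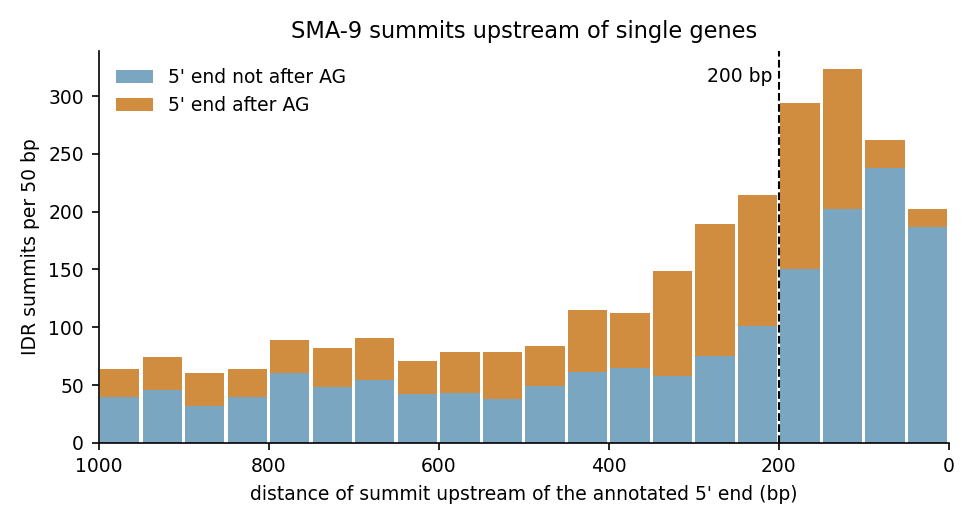
Number of IDR summits upstream of single genes per 50 bp (y axis) by distance from the annotated 5' end (x axis, bp), with 5' ends that directly follow AG in orange and all others in blue. The dashed line at 200 bp is the limit of the members, and the orange part is small in the bins within 100 bp of the 5' end, 7.43% and 9.16%, and larger beyond.

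The 5' ends of 4 of the strongest members of the AG kind are shown, again from ce11, to make the acceptor sites visible. Each sequence holds the last 20 bases upstream of the annotated 5' end and the first 10 after it, with AG in capitals. The T-rich stretch before AG is the usual form of a splice acceptor in this species. Not every member after AG had such a stretch there: plrg-1 and cyp-13A5 did not.
cdc-48.1 (chrII:10563398-10563427, minus strand): actcattcttcttattttAGgtcttaaatt
rpb-11 (chrII:14060065-14060094, plus strand): tcaattttctaaattttcAGcaaaaatgaa
C34C12.8 (chrIII:3460386-3460415, plus strand): tcaaattttggcaatttcAGacaatatgct
lin-9 (chrIII:8904122-8904151, minus strand): aaaaatttgttatttttcAGataaaaatgt

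Most members were matched to the outermost 5' end of their gene, as were most summits that were not members. The shares were 80.6%, or 874 members, and 82.2%. The 5' end was an internal one for 210 members, whose median distance was 102 bp and median signal 112. In all, 809 summits, or 74.6%, lay outside any protein-coding gene. Another 215 lay in the body of their own gene, including all 210 at an internal 5' end. That is 19.8% of members, against 17.9% of all summits that were not members. Few lay in another gene: 1.48% were in another gene of the same strand, against 11.1% of all summits that were not members. For another gene of the opposite strand the shares were 4.70% and 8.86%. Starts of tRNA genes were within 200 bp of 7 members, or 0.646%, against 3.88% of all summits that were not members. No member lay that close to a miRNA start, against 0.184% of all summits that were not members. The rule placed every member just upstream of a protein-coding 5' end, so these shares depend in part on the rule itself.

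A small set of genes, 23, had more than 1 member, each upstream of different 5' ends of the gene. ret-1, the reticulon gene, had 3, spread over 16414 bp, with signals of 151, 96.0 and 90.2. hlh-30, the worm TFEB, had 183 at 1 start and 70.6 at another 15935 bp away. Signalling genes in this set were tir-1 (the SARM homologue, 100.96 and 82.4), kin-1 (a catalytic subunit of protein kinase A, 121 and 108), gsa-1 (a stimulatory G alpha protein, 93.6 and 90.0) and lin-45 (Raf, 132 and 81.3). nhr-34 had signals of 321 and 301 at starts 5402 bp apart. The remaining genes were C34B4.2, F26F12.3, F32B5.6, F55H12.7, H28G03.2, T28F4.4, Y43F8B.2, Y48G8AL.13, cyc-2.1, fbxl-1, hrg-1, mca-1, nhr-168, pptr-2, sir-2.2 and unc-94. The median span between a gene's summits was 1745 bp.

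The X chromosome held 232 members, or 21.4% (interval 19.1 to 23.9). It held 15.9% of the 5' ends that a single-gene summit could have, and 24.5% of all summits that were not members. Members on X were thus more frequent than their 5' ends and somewhat less frequent than SMA-9 summits that were not members. A member was found at 8.39% of X genes and at 4.24% of genes on chromosome I. Chromosome V held the largest number, 277 or 25.6%, with 23.5% of the eligible 5' ends and 18.7% of summits that were not members. Median signals per chromosome ran from 105 on III to 116 on V.

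Across all protein-coding genes, 5.31% had a single-gene core promoter summit, and 18.1% had any IDR summit 0 to 1000 bp upstream of a 5' end. Nuclear hormone receptor genes, a family of ligand-regulated transcription factors much expanded in this species, stood above that share: 44 of 269 had a member, or 16.4% (interval 12.4 to 21.2). Cytochrome P450 genes, whose products oxidize lipids and foreign compounds, had 16 of 74, or 21.6% (13.8 to 32.3). UDP-glucuronosyltransferase (ugt) genes, which attach sugars to such compounds, had 16 of 67, or 23.9% (15.3 to 35.3). Glutathione S-transferase (gst) genes, which conjugate glutathione, had 10 of 44, or 22.7% (12.8 to 36.99). The ugt and gst families were singled out after the values of 94 gene-name families of at least 20 genes had been seen. That ranking also held egl genes, named for an egg-laying phenotype and of mixed function, with 6 of 27, or 22.2% (10.6 to 40.8), above the P450 genes, and dhs genes, short-chain dehydrogenases, with 5 of 30, or 16.7% (7.34 to 33.6), above the receptors. The set shown is thus not the only one with a high share. In the list of each replicate alone the counts were 44 and 44 for the receptors, 12 and 12 for P450 genes, 14 and 18 for ugt genes, and 11 and 10 for gst genes, with replicate 1 first. Members of 1 family share sequence and often lie in clusters, so their counts are not independent, and the precision of read placement between near copies was not measured.

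Among members, the summits of these families were close to the 5' end. The median distance was 71.5 bp for the 46 receptor summits, 66.0 bp for P450 genes, 72.5 bp for ugt genes and 71.5 bp for gst genes, against 114 bp for all members. Over all single-gene summits 0 to 1000 bp upstream, the medians were 82 bp for P450, 91 bp for ugt and 73 bp for gst genes. On that wider measure the receptors, with 241 bp, were close to the 261 bp of all genes. Of the single-gene summits within 1000 bp upstream, 16 of 18 at P450 genes, 16 of 21 at ugt genes and 10 of 11 at gst genes were members, against 46 of 99 at the receptors and 40.2% for all genes. The share of 5' ends after AG, 26.4% over all genes, was 24.5% for the receptors, 16.7% for P450, 13.2% for ugt and 8.16% for gst genes.

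The receptor genes ran from 64.06 to 892 in signal, with a median of 153. Below nhr-58 stood nhr-258 with 328 (169 in replicate 1, 165 in replicate 2), nhr-34 with 321 (217 and 112) and nhr-50 with 318 (159 and 155). Of the 44 receptor genes, 28 were on chromosome V, which holds 167 of the 269. In the P450 family cyp-13A8 led with 287 (151 in replicate 1, 128 in replicate 2), followed by cyp-33A1 with 205 (96.6 and 108) and cyp-37B1 with 182 (85.8 and 87.0). ugt-65 had 249 (152 and 99.3) and ugt-44 had 183 (79.8 and 111). ugt-13 had 212 in the IDR list but 54.8 in replicate 1 and 149 in replicate 2, so its level rests mainly on replicate 2. gst-20 had 319 (223 and 110), gst-44 had 187 (105 and 75.5) and gst-5 had 177 (104 and 73.6). The genes named were the strongest of their families and lay above the members' upper quartile of 173, whereas the weakest receptor, P450 and ugt members, at 64.06, 63.9 and 63.4, lay near the lowest signal of the list.

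**Figure D4:**
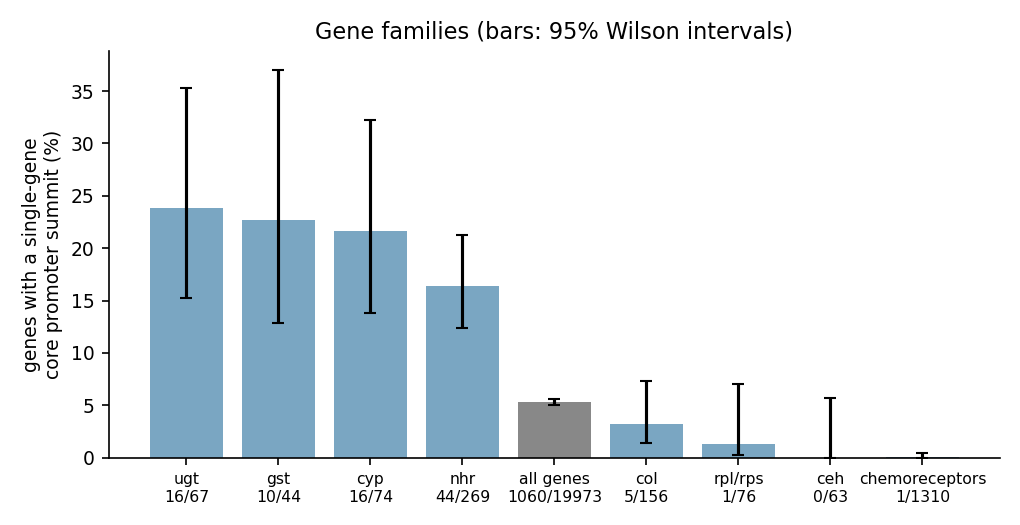
Percent of genes with a single-gene core promoter summit (y axis) in 8 gene groups, with the number of genes below each bar; the grey bar is all protein-coding genes, 5.31%, and error bars are 95% Wilson intervals. The ugt, gst, P450 (cyp) and nuclear hormone receptor (nhr) bars lie at 16.4% to 23.9%, and the collagen (col), ribosomal protein (rpl/rps), homeobox (ceh) and chemoreceptor bars lie below the grey bar.

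Ribosomal protein genes gave the opposite picture by position. Of 76 genes for cytosolic ribosomal proteins, 1 had a member, rpl-24.2, with 471 in the IDR list, 274 in replicate 1 and 198 in replicate 2, at 154 bp. Yet 56 of the 76 had a summit within 1000 bp upstream, and 43 had one beyond 200 and up to 400 bp upstream. Their 5' ends followed AG in 78.5% of cases (73 of 93), and their single-gene summits had a median distance of 310 bp. The rule itself left out many of them, since 32 of the 76 have a single-gene 5' end at all. With the window drawn to 300 bp, 11 of the 76 had a single-gene summit.

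Other housekeeping groups had 0 to 3 genes each, and the intervals of their shares all include the background of 5.31%. The rule left out part of each group. A single-gene 5' end was present in 13 of 34 splicing factor genes (lowest share) and 24 of 32 tRNA synthetase genes (highest). Among genes with such a 5' end, 0% to 21.4% per group had a member, against 6.35% over all genes. The highest was the proteasome, 3 of 14. A summit 0 to 1000 bp upstream was at 21.9% to 53.3% of genes per group, against 18.1% of all genes. Mitochondrial ribosomal proteins had 3 of 66 genes (mrpl-28 with 412, mrpl-55 with 183, mrps-31 with 82.4) and proteasome subunits 3 of 33 (rpn-11, the lid deubiquitinase, with 248, rpt-1 with 142 and pbs-3 with 86.8). The respiratory chain had 2 of 35 (nduf-11 of complex I with 305, nduf-7 with 96.7), and chaperone genes had 2 of 30. Those were hsp-3, a BiP of the endoplasmic reticulum, with 489 (284 in replicate 1, 221 in replicate 2), and hsp-12.6, a small heat shock protein, with 153 (91.4 and 58.6). Translation factors (eif-2Bdelta, 174), tRNA synthetases (vars-1, 97.1), splicing factors (rsp-6, 174) and nucleoporins (npp-18, 135) had 1 gene each. The list of replicate 1 alone gave 3 translation factors and 2 nucleoporins, and that of replicate 2 gave 1 and 4. No vacuolar ATPase, ubiquitin-conjugating enzyme or Rab and Arf GTPase gene had a member, out of 20, 24 and 29 genes, with upper bounds of 16.1%, 13.8% and 11.7%, but the list of replicate 2 alone gave 2 vacuolar ATPase genes.

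Among large families and groups of the cuticle, the senses, the immune response and chromatin, the chemoreceptors alone had an interval that lay wholly below the background of 5.31%. The intervals of collagens, lectins, neuropeptides, homeobox genes and histones include it. Cuticle collagens had 5 of 156 genes, or 3.21% (1.38 to 7.28), led by col-147 with 113 (40.8 in replicate 1, 74.5 in replicate 2), col-149 with 103 and col-10 with 94.1. The list of replicate 1 alone gave 2 collagen genes and that of replicate 2 alone gave 4. Chemoreceptors had 1 of 1310, srh-2, or 0.0763% (upper bound 0.431%), with 2 in the list of replicate 2 alone, and homeobox genes had 0 of 63 (upper bound 5.75%), with 1 in the list of replicate 1 alone. C-type lectins had 9 of 240, or 3.75% (1.99 to 6.97), led by clec-265 with 158, clec-218 with 151 and clec-50 with 130. Neuropeptide genes had 2 of 102, both of them genes of the antimicrobial cluster, nlp-29 with 135 and nlp-28 with 64.6. Histone genes had 3 of 72, of which 10 have a single-gene 5' end: his-37, his-24 (257) and his-72 (106).

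In the DBL-1 pathway 2 of 19 genes had a member, which is too few to set against the background (interval 2.94 to 31.4%). The list of replicate 1 alone gave 1, and 4 had one when the other strand was searched to 500 bp. The 2 members were at sma-9 and at sma-3, an R-Smad gene. sma-3 had 69.2 in the IDR list, 35.4 in replicate 1 and 31.7 in replicate 2, at 149 bp. The sma-3 peak thus lay near the lowest signal in the list. sma-2, another R-Smad gene, and sma-10, a membrane protein gene that promotes signalling, had summits of 311 each, at 60 and 89 bp, but both were left out because their promoters are divergent. No IDR summit lay within 1000 bp upstream of dbl-1, the ligand gene, nor of the receptor genes sma-6 and daf-4, nor of the co-Smad gene sma-4.

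Lists of genes drawn up by tissue gave small counts, and their genes need not be confined to that tissue. Of 17 genes on the epidermis list 5 had a member, or 29.4% (13.3 to 53.1). With outermost 5' ends alone 1 had one, and 2 had one when the window was 0 to 100 bp. The 5 were led by lin-28 with 326 (192 in replicate 1, 139 in replicate 2) and lin-14 with 287 (159 and 125), regulators of larval timing. nhr-25, a receptor of epidermal development and molting, had 152. Of 19 muscle genes 4 had one, or 21.1% (8.51 to 43.3), but the list of replicate 1 alone gave 1 and that of replicate 2 gave 5. The count thus depends on the list used. Among the 4 was hlh-1, the worm MyoD, with 120 (54.7 in replicate 1, 69.5 in replicate 2). So was unc-15, the paramyosin gene, with 87.4 (51.6 and 43.1). Another was unc-89, the obscurin gene, with 87.9 and no peak over its summit in replicate 1. The intestine list had 1 of 17 (pgp-1, an ABC transporter gene, 223) and the neuron list 1 of 20 (egl-21, a carboxypeptidase gene of neuropeptide processing, 104). Pharynx (12 genes) and germline (20 genes) had none. The list of replicate 2 alone gave 3 intestine genes and 1 pharynx gene.

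The DNA around the summits was richer in G and C than other core promoters. Within 50 bp of a member summit the median G + C content was 43.6%, against 33.7% in windows of the same length centred 100 bp upstream of all 24485 single-gene 5' ends. Divergent core promoters had 45.5%, the upstream class 44.6% and the other summits 42.6%, so the elevation was common to SMA-9 summits. In 11 bp windows the members' content was 46.5% at the summit, 34.2% at 100 bp upstream of it and 36.6% at 100 bp downstream. Divergent core promoters had a higher and narrower rise, to 50.2% at the summit, with 29.6% at 100 bp upstream. The content of reads by G + C and its effect on calling was not tested.

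**Figure D5:**
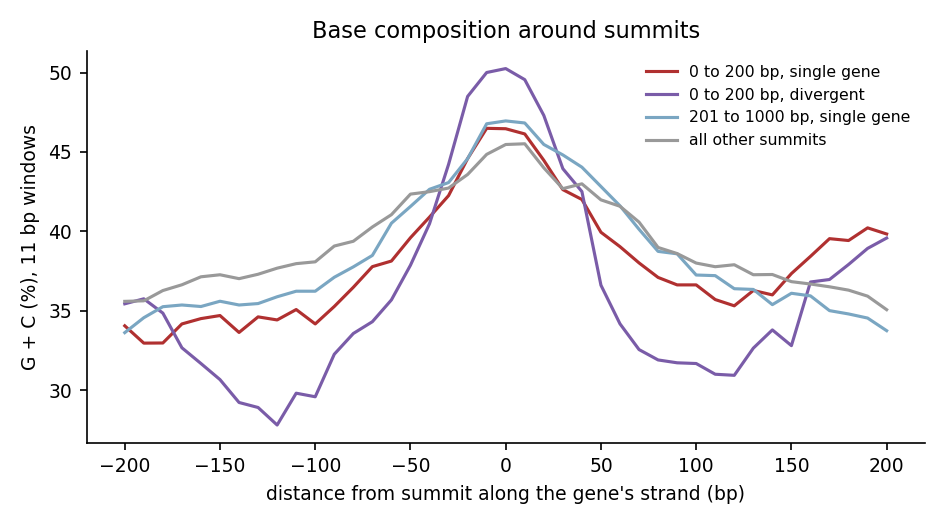
G + C content (y axis, percent, in 11 bp windows) by distance from the summit along the strand of the gene (x axis, bp) for members in red, divergent core promoters in purple, the upstream class (beyond 200 and up to 1000 bp) in blue and all other summits in grey. All 4 lines rise at the summit, the members to 46.5% and the divergent class to 50.2%, and fall on both sides.

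Short motifs were searched on either strand within 50 bp of each summit, and set beside the same count in the windows of all single-gene core promoters. The GATA-factor site CTTATC was in 18.6% of member windows (16.4 to 21.1) and in 6.66% of promoter windows. Its share was 8.91% at divergent core promoters, 12.5% in the upstream class and 14.8% elsewhere. The GAGA repeat (GAGAGA) was in 23.5% against 9.29%, the Smad-binding core CAGAC in 21.5% against 9.81%, and the bZIP core TGACGT in 8.49% against 3.87%. At other SMA-9 summits, the GAGA repeat was in 27.7% of the upstream class and 26.0% of the other summits, above the members, CAGAC in 17.8% and 18.3%, and the bZIP core in 6.38% and 8.13%. The E-box CACGTG was in 8.12% against 2.33%, with 7.497% in the upstream class and 7.42% at the other summits, and members with it had a median signal of 153, against 111 without. AT-rich motifs went the other way, with the T run TTTTTT in 20.6% against 46.1% and the TATA box TATAAA in 8.58% against 13.3%. The TATA share depended on the place of the summit, while promoter windows were all centred 100 bp upstream. Among members 0 to 100 bp from the 5' end it was 13.5%, alike to promoter windows, and the T run was in 20.1%. The silencer element that fly Schnurri binds with Smads was in 2 member windows, or 0.185%. A match is a run of letters and says nothing of what binds there, and the windows differ in G + C content as given above.

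By family, the TATA box was in 7 of the 16 ugt windows, or 43.8%, and in 1 of the 46 receptor windows. The GAGA repeat was in 6 of the 10 gst windows, and the GATA-factor site in 5 of the 16 ugt and 4 of the 16 P450 windows. These family counts are small and were looked at after the families had been singled out.

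Among all words of 6 letters found in at least 5% of member windows, GACGCA had the highest ratio to promoters with no summit, 17.3% of member windows against 2.57%. The next were AGACGC (16.1% against 2.61%), ACGCAG (16.3% against 2.67%) and CGCAGA (16.7% against 2.97%). For comparison, words of 6 letters with 4 G or C had a median ratio of 1.56. These leading words overlap, and together they spell AGACGCAGA, which was in 104 member windows, or 9.59%, and in 1.10% of all single-gene core promoters. The 8-letter word GACGCAGA inside it was chosen after the counts were seen. It was in 112 of the 1084 member windows, on either strand, or 10.3% (8.66 to 12.3), and in 1.23% of all single-gene core promoters. At divergent core promoters the share was 6.19%, in the upstream class 7.37% and at the other summits 5.32%.

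The 61 bp around the summits of 5 members that hold the word are shown along the strand of the gene in ce11, with the word in capitals. They were chosen from the 10 of highest signal among the 112, as examples of the word in either orientation.
nhr-58 (chrV:532170-532230, plus strand): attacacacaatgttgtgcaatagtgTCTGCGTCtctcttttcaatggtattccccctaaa
C34C12.8 (chrIII:3460224-3460284, plus strand): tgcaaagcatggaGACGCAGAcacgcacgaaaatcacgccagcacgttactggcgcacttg
ntl-11 (chrIV:15471597-15471657, minus strand): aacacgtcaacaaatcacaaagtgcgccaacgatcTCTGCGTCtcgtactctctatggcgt
hst-2 (chrX:11207140-11207200, minus strand): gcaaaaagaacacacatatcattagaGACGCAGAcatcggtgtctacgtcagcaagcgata
hsp-3 (chrX:6092144-6092204, minus strand): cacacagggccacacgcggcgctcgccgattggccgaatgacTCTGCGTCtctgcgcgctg

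At nhr-58 and at hst-2 the word was centred 0.5 bp from the summit, at ntl-11 8.5 bp, at C34C12.8 13.5 bp and at hsp-3 15.5 bp. Over the 112 members the median offset was 16.5 bp, and in 63 of them, or 56.25%, the word lay within 20 bp of the summit. The search covered 50 bp on either side alone, so every match was near the summit. Whether these offsets differ from an even spread over the window was not tested. It read GACGCAGA along the strand of the gene in 38, or 33.9%, and TCTGCGTC in the others. Members with the word had a median signal of 132 in the IDR list, 69.6 in replicate 1 and 63.1 in replicate 2, against 112, 61.6 and 52.9 without it. The word was in 14 of the 100 members of highest signal and in 7 of the 100 of lowest signal, and so in a minority at both ends of the range. The strongest 3 with the word were F28C10.3, nhr-58 and Y43F8B.2, and hmg-1.2, an HMG-box gene, had 324 (150 in replicate 1, 178 in replicate 2). The 8-letter word was absent from the windows of cdc-48.1, mdl-1 and alh-1, which have 3 of the 4 highest signals.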

How the data were processed

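The data were peak lists of SMA-9-GFP ChIP-seq from 2 biological replicates, grouped and numbered per the labels. Per the file headers, the authors derived each replicate's list and a pooled list from alignments, and the IDR list from these. The sources used here name no aligner, peak caller or IDR threshold. The peak signal was used as a score as deposited by the authors. Lists on ce11 were used, those on ce10 were not, and mitochondrial peaks were left out.

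A summit is the deposited peak start plus the summit offset. Each was matched to the nearest upstream-facing 5' end of a protein-coding transcript in Ensembl release 115 of WBcel235, and sequence came from the RefSeq copy of that build. Coordinates are 1-based. A replicate's value is the signal of its peak that contains the summit. Without replicate 1 or 2 means the first 7065 peaks of the other replicate's own list under the same rule. Shares carry 95% Wilson intervals, and no test was run. The rule was tested on simulated summits. Python 3.11.15, numpy 2.4.6, pandas 2.3.3, scipy 1.17.1 and matplotlib 3.10.9 were used.

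Members, the 27 gene lists and the 11 motifs were chosen with earlier results of these data known. Genes named were the 25 of highest and 3 of lowest signal, those nearest the window's edges, genes with more than 1 member, the strongest 3 per list, and members in the first 100 of 1 replicate. Genes of the ugt and gst families, further nhr genes and members with a peak over the summit in 1 replicate were named after their values were seen. So were DBL-1 pathway genes without a member and genes with the 8-letter word.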

Additional observations from a re-analysis of the deposited data

How the results depend on the processing

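A window of 0 to 100 bp gave 468 members (6.62% of the IDR list) at 461 genes, a median distance of 54.5 bp and 8.55% of 5' ends after AG. A window of 0 to 300 bp gave a share of 21.1%, a distance of 145.0 bp and 35.8% after AG. The share was 16.9% and 13.2% with the other strand searched to 500 and 2000 bp, and 12.6% with outermost 5' ends alone. The part of the IDR list above its median signal gave 569 members at 560 genes, a median signal of 169 and 96.7% inside a peak of both replicates. With the whole IDR list, and each replicate cut to its first 7065 peaks, the share inside both was 75.1%. Median G + C content was 44.3% within 30 bp of the summit and 39.3% within 100 bp. In a single replicate's list the median signal was 53.9 to 62.8, on that list's own scale, with 1065 to 1085 members at 1033 to 1061 genes. Among values for single gene lists, 162 of 216 stayed within the limit set for them (a count within 1.5 times) and 54 moved. Among values for single motifs, 83 of 110 stayed within their interval and 27 moved. The ugt and gst counts, the distances by AG and the 8-letter word were recomputed as alternatives chosen after seeing the data.

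Limits are the 1 group with 2 replicates, the lack of read counts and of control peaks, and annotated 5' ends that are not always starts of transcription. No paired analysis was possible because there was only 1 group.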
